A study of Mus musculus with 15 samples.

Results

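Marrow cells carrying a HOXB4 vector were compared with cells carrying a GFP vector, both sorted as LSK cells 20 weeks after transplantation, across every gene that the arrays could name. The comparison used 6 of the 15 arrays of the study, the 3 titled HOXB4+ and the 3 titled GFP+ at that time. It covered 17097 genes, each read from 1 probe set, the brightest over the 15 arrays among those with a single gene symbol. LSK cells are the lineage-negative marrow cells with Sca-1 and Kit on their surface, a fraction that holds blood stem cells and the progenitors nearest to them. The other 9 arrays, of HOXB4 cells at 6 and 12 weeks and GFP cells at 12 weeks, entered the estimate of the spread, and those of 12 weeks the test of a difference between times.

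Both groups started from marrow of female C57Bl/6 donors that had received 5-fluorouracil, which kills dividing cells. The marrow was transduced with an MSCV retroviral vector made in GPE+86 producer cells and put into lethally irradiated mice, per the series text. In the HOXB4 group the vector was MSCV-HOXB4-ires-YFP, and in the control group MSCV-ires-GFP, so the control cells carry no added HOXB4 and differ also in the fluorescent protein by which they were sorted. The viral promoter of such vectors is active in many kinds of blood cell, so HOXB4 need not have been limited to stem cells. Titles place the last samples at 20 weeks whereas the series text says 24 weeks, and ages are not given in the sources used here. The sorted cells were not cultured, and 20 ng of RNA from each sample were amplified before labelling. Nothing in the labels ties the arrays to separate animals, and the p-values below therefore reflect array-to-array spread alone, which may be technical.

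HOXB4 is a homeobox transcription factor that binds DNA together with Pbx and Meis proteins, and its forced expression is known for expanding blood stem cells in mouse marrow. Stem cells feed several early branches. In the granulocyte and monocyte branch, PU.1 (Spi1) and the C/EBP proteins switch on the primary granule genes first and the late granule genes as neutrophils mature, whereas GATA factors and their partners act in megakaryocytes, red cells and mast cells, and the Rag recombinases mark the first lymphoid steps. LSK cells hold few mature cells, but genes of these branches can already be read in them.

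Pairs of arrays correlated over all genes at 0.9804 to 0.9841 within the HOXB4 group, 0.9828 to 0.9931 within the GFP group and 0.9568 to 0.9771 across the groups. A gene's SD over replicates had a median of 0.176 (HOXB4) and 0.145 (GFP). Replicates of 12 weeks correlated at 0.992 to 0.995, and those of HOXB4 cells at 6 weeks at 0.969 to 0.98. Their spread enters the standard errors below. The spiked-in bacterial RNAs (dap, lys, phe and thr), which are added in equal amounts to report on the labelling, had a mean log2 signal of 7.71, 8.05 and 11.76 on GFP replicates 1, 2 and 3, and of 8.55, 9.25 and 10.31 on HOXB4 replicates 1, 2 and 3. On the 9 other arrays it lay between 7.36 and 8.37, so all 3 HOXB4 arrays and GFP replicate 3 lay above that range, and the replicates 3 of both groups were the brightest. GFP replicate 3 also had the brightest nonspecific probes (3.20, against 2.82 to 2.95 on the other 5), and HOXB4 replicate 3 the largest 3' minus 5' signal of Gapdh (2.02, against 1.0 to 1.39). The part of these differences in the results was not tested. Counts without single arrays, and without both replicates 3, are given below.

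Values of a gene are log2 signals, given for replicates 1, 2 and 3 in that order, GFP before HOXB4. A difference is HOXB4 minus GFP with the standard error of the limma model. That error draws on the spread of all 5 groups and can be smaller or larger than the 6 arrays alone would give. A gene is called where its Benjamini-Hochberg adjusted p, over all 17097 genes, is under 0.05. The sort could be checked in part. Kit read 8.44, 8.45 and 8.33 on the GFP arrays and 7.89, 8.38 and 8.05 on the HOXB4 arrays (difference -0.30 ± 0.13, adjusted p = 0.18). Ptprc, the pan-leukocyte antigen, read 9.88, 9.73 and 10.12 against 10.27, 10.19 and 10.32 (0.35 ± 0.20, adjusted p = 0.317). Neither passed the test, and Sca-1 (Ly6a) was not among the genes tested. The lineage antigens Cd3e, Cd4, Cd8a and Cd5 did not pass either, with differences between -0.49 and 0.26. Itgam, the integrin alpha-M antigen of granulocytes and monocytes, read 6.76, 6.63 and 6.76 in GFP and 4.50, 5.67 and 5.21 in HOXB4 cells and was lower in the latter (-1.59 ± 0.31, adjusted p = 0.00407). Hoxb4 itself did not pass (-0.15 ± 0.24, adjusted p = 0.782). No source used here says whether its probe set reads the vector's transcript, so it checks nothing about the labels.

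At 20 weeks most measured granule and monocyte genes were lower in HOXB4 cells, and part of the megakaryocyte, stem cell and lymphoid genes were higher. Mast cell and basophil genes were divided (3 of 19 higher, 4 lower), and 3 of 29 long-term stem cell genes were lower. The test called 1530 of the 17097 genes (8.95%). With HOXB4, 645 were higher (3.77%) and 885 lower (5.18%). Counts for the gene lists below are to be read against these shares. The falls were larger than the rises. At least 4-fold changes numbered 91 lower and 41 higher, and at least 8-fold changes 25 lower and 9 higher. The median difference over all genes was 0.02 on the log2 scale. The ranges of the groups were separate for 1491 of the called genes, and for 25.4% of all genes. Separate groups in a called gene therefore add little to its call. The count of called genes fell to 887 without GFP replicate 1 and to 798 without GFP replicate 2, and a fit on these 6 arrays alone gave 715. In bulk samples such as these, fewer cells of a type and less RNA per cell cannot be told apart.

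**Figure D1:**
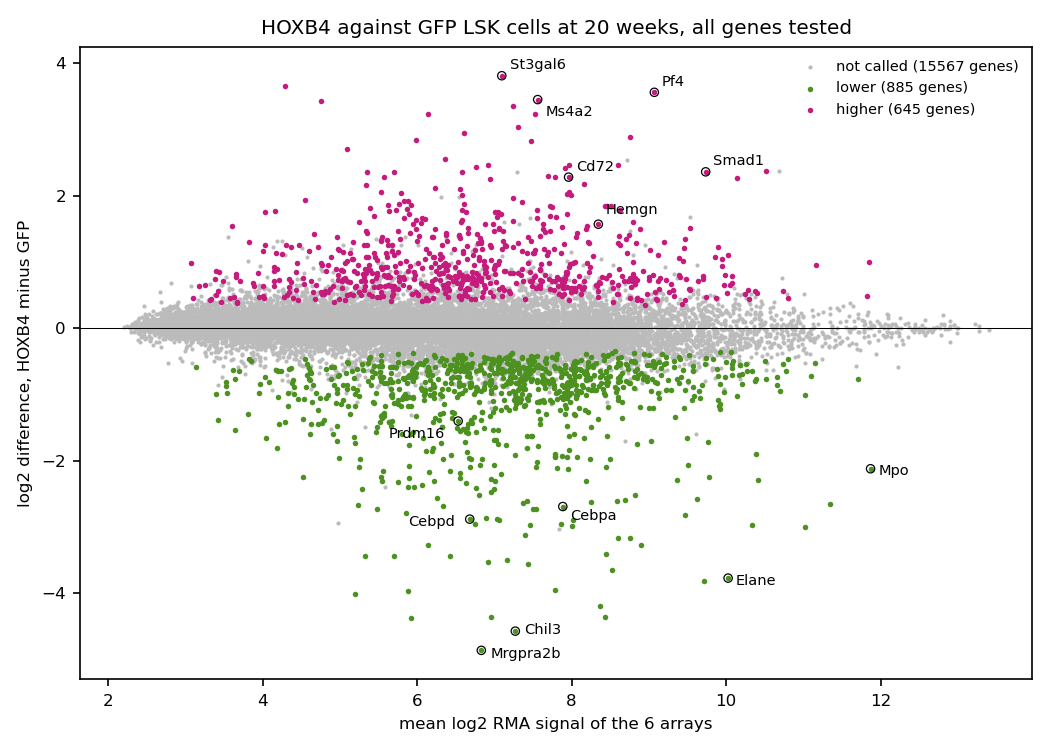
Difference between HOXB4 and GFP LSK cells at 20 weeks (vertical axis, log2) against the mean log2 signal of the 6 arrays (horizontal axis), 1 point for each of 17097 genes, with 645 called higher in magenta and 885 called lower in green. The falls reach -4.86 (Mrgpra2b) and the rises 3.81 (St3gal6).

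The 25 largest falls, ranked by size among called genes whose arrays did not overlap, included Elane, Prtn3, Lcn2 and other genes of granulocytes and monocytes. Mrgpra2b, a Mas-related receptor, read 9.58, 9.73 and 8.49 on the GFP arrays and 4.65, 3.99 and 4.58 on the HOXB4 arrays, a difference of -4.86 ± 0.32 (adjusted p = 1.97e-06). F13a1, the catalytic chain of a clotting factor found in monocytes and platelets, read 11.02, 10.99 and 9.80 against 6.84, 5.14 and 6.79 (-4.35 ± 0.47, adjusted p = 5.23e-05). Fbp1, a gluconeogenic phosphatase, read 8.41, 8.73 and 7.16 against 3.68, 3.24 and 4.27 (-4.37 ± 0.34, adjusted p = 6.82e-06). The ranking required the groups to be separate, and in all 3 genes GFP replicate 3 was the lowest of its group. Across the 25 falls GFP replicate 3 was the lowest GFP array in 23 and HOXB4 replicate 1 the highest HOXB4 array in 21, so the groups lay nearest to each other on these 2 arrays. Without GFP replicate 3 and HOXB4 replicate 3 together, 1333 genes were called over all genes.

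Prtn3 and Elane encode 2 serine proteases of primary granules and lie next to each other on chromosome 10. Their promoters and those of 3 other genes among the largest falls are shown because they hold the letters GAGGAAG, the core at which PU.1 binds, and Itga2b, the integrin alpha-IIb of megakaryocytes, is shown as a gene that rose and holds the same letters. The sequences are the 150 bases before the first base of the gene, read 5′ to 3′ on the gene's strand from the RefSeq promoter table of build GRCm38.p6, and capitals mark GAGGAAG or its other strand, CTTCCTC. They lie at chr10:79879517-79879666 (Prtn3, plus strand), chr10:79886162-79886311 (Elane, plus), chr7:18884540-18884689 (Pglyrp1, plus), chr13:37050245-37050394 (F13a1, minus), chr13:62888283-62888432 (Fbp1, minus) and chr11:102469884-102470033 (Itga2b, minus).
Prtn3: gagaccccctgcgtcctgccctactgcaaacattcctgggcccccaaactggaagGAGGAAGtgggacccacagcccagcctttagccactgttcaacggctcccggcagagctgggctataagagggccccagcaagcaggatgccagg
Elane: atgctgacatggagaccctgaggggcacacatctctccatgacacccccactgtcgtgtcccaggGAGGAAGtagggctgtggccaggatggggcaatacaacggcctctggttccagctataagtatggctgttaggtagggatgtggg
Pglyrp1: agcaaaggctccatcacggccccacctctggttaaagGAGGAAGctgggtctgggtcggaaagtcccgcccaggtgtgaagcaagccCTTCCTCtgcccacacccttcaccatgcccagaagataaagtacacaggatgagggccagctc
F13a1: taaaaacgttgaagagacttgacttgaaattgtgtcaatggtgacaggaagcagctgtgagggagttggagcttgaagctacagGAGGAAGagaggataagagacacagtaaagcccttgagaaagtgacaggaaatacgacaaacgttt
Fbp1: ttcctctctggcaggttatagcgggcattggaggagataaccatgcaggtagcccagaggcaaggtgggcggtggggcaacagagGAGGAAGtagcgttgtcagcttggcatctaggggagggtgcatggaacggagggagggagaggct
Itga2b: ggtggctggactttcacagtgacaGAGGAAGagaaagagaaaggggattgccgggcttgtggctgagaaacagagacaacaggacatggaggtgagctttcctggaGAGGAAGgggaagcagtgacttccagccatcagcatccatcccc
In Prtn3 and Elane the core starts 95 and 85 bases before the gene. Pglyrp1 and Itga2b each hold it at 2 places.

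Over 13605 genes with a window of 250 bases in that table, GAGGAAG on either strand was present in 10.6%. The share was 11.7% (30 of 256) among genes lower at least 2-fold, 21.6% (16 of 74) among genes lower at least 4-fold, 13.7% (25 of 182) among genes higher at least 2-fold, and 15.6% (5 of 32) among genes higher at least 4-fold. For C/EBP the letters TTNNGCAA were present in 8.08% of all windows, and in 12.1%, 16.2%, 5.49% and 6.25% of the same 4 sets. A Hox-Pbx site, searched as TGATTNAT, was present in 1.85% of all windows and in 1.56%, 2.7%, 1.65% and 6.25% (2 of 32) of these sets. These are matches of letters in short windows, described without a test. They are not sites of binding, the genes shown were chosen after the search, and the 3 searches were run beside 1 for GATA factors.

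**Figure D2:**
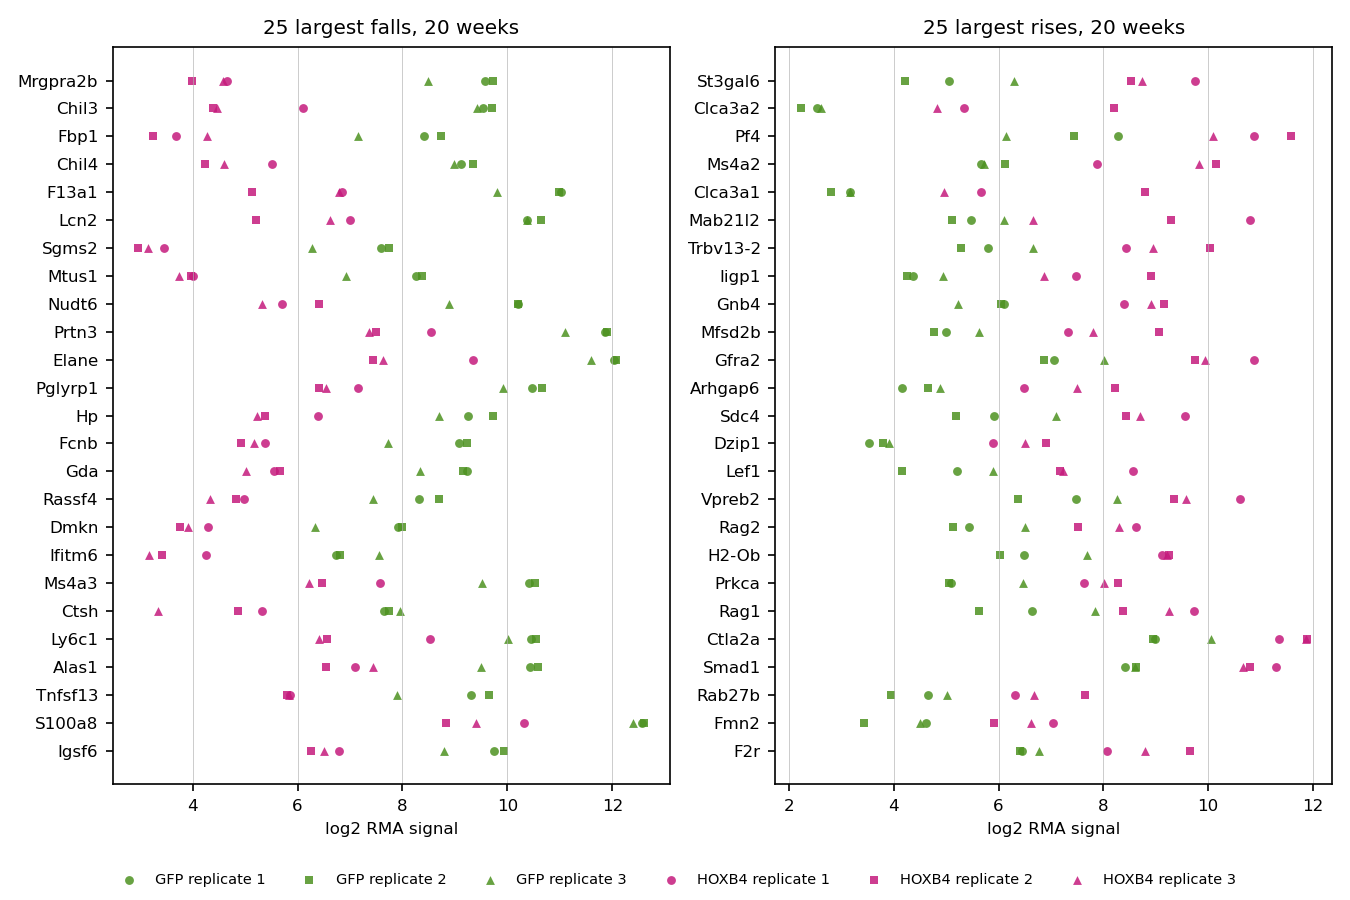
Log2 RMA signal (horizontal axes) of the 25 largest falls and the 25 largest rises at 20 weeks on each of the 6 arrays. GFP arrays are green and HOXB4 arrays magenta, with a circle, square and triangle for replicates 1, 2 and 3. The genes were ranked on these values, so the gap between colours is a consequence of the ranking. The green triangle (GFP replicate 3) lies nearest to the HOXB4 arrays in most genes of both panels.

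The falls ranked 13 to 25 lay between -3.56 and -2.98. Hp, haptoglobin, read 9.24, 9.73 and 8.70 in GFP and 6.38, 5.37 and 5.23 in HOXB4 cells (-3.56 ± 0.34). Fcnb, the myeloid ficolin that binds bacterial sugars, fell by 3.52 ± 0.31 and Gda, guanine deaminase, by 3.50 ± 0.31. Ms4a3, a marker of granulocyte-monocyte progenitors, read 10.42, 10.52 and 9.51 against 7.57, 6.47 and 6.22 (-3.40 ± 0.33). All arrays of these genes were separate between the groups, as the ranking required. Alas1, the first enzyme of haem synthesis, fell by 3.16 ± 0.34, Ly6c1, of the Ly6C surface antigen, by 3.17 ± 0.57, and Tnfsf13, the B cell survival factor APRIL, by 3.12 ± 0.38. S100a8, a calprotectin subunit, read 12.56, 12.61 and 12.39 against 10.32, 8.83 and 9.40 (-3.0 ± 0.86, adjusted p = 0.0417). It was close to the threshold, and missed it without GFP replicate 1, 2 or 3 or without HOXB4 replicate 2 or 3 (adjusted p between 0.074 and 0.126). Rassf4 (-3.44), Dmkn (-3.43), Ifitm6 (-3.43), the protease Ctsh (-3.27) and Igsf6 (-2.98) made up the rest.

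Of 22 measured primary granule and granulocyte-monocyte progenitor genes, 17 fell and 5 did not pass, with a median difference of -1.91 against 0.02 over all genes. The mean of the members was 10.25, 10.32 and 9.77 on the GFP arrays and 8.40, 8.09 and 8.06 on the HOXB4 arrays, so the groups lay apart. Mpo, myeloperoxidase, read 13.07, 13.04 and 12.68 against 11.37, 10.05 and 11.01 (-2.12 ± 0.28, adjusted p = 0.000248). Ctsg, the granule protease cathepsin G, fell by 2.97 ± 0.26 and Hk3, a hexokinase of myeloid cells, by 2.59 ± 0.32. Csf3r, the receptor for the granulocyte growth factor G-CSF, read 9.25, 9.25 and 8.46 against 7.03, 7.31 and 7.67 (-1.65 ± 0.25, adjusted p = 0.00082). The receptor chain Csf2rb did not pass on the probe set tested (-0.44 ± 0.20, adjusted p = 0.221) but was lower on another, at 7.85, 7.71 and 7.74 against 6.16, 6.98 and 5.71 (-1.48 ± 0.25, adjusted p = 0.00174 over all probe sets). Nkg7 (-0.54 ± 0.26, adjusted p = 0.241) did not pass, and Cst7 was at 1.05 ± 0.36 (adjusted p = 0.0875). The count of falls lay between 16 and 18 when any of the 6 arrays was left out.

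Late neutrophil granule genes fell as well. Of 20 measured members 18 fell and 2 did not pass, the gelatinase Mmp9 (-0.33 ± 0.18) and the collagenase Mmp8 (-0.27 ± 0.24), and the median was -2.18. The mean of the members was 8.59, 8.65 and 8.47 on the GFP arrays and 6.92, 6.14 and 6.59 on the HOXB4 arrays. Chil3, a chitinase-like protein, read 9.54, 9.71 and 9.42 against 6.11, 4.38 and 4.46 (-4.57 ± 0.56), and Lcn2, a protein that withholds iron from bacteria, read 10.38, 10.65 and 10.37 against 6.99, 5.21 and 6.62 (-4.19 ± 0.64). Ltf, lactoferrin, read 8.76, 8.79 and 9.16 against 6.75, 5.80 and 5.97 (-2.73 ± 0.37). HOXB4 replicate 1 was the highest of its group in each of these. Cxcr2, the chemokine receptor of neutrophils, fell by 1.15 ± 0.20 and Ceacam1, an adhesion molecule, by 1.29 ± 0.17. Of the members, 10 were called without GFP replicate 1 or without HOXB4 replicate 2, 11 without GFP replicate 2, 12 without GFP replicate 3, and 13 or 16 without HOXB4 replicate 3 or 1.

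Among 21 oxidase and lysosomal genes 12 fell and 9 did not pass (median -0.98), and among 21 monocyte and macrophage genes 13 fell and 8 did not pass (median -0.92). Cybb, the catalytic chain of the phagocyte oxidase, read 9.17, 9.44 and 9.41 against 6.46, 6.54 and 6.18 (-2.95 ± 0.34, adjusted p = 9.39e-05). Hvcn1, the proton channel that balances that oxidase, read 8.89, 9.24 and 8.40 against 6.93, 7.07 and 6.72 (-1.93 ± 0.28). The arrays of both genes were separate by more than 1 log2 unit. Of the lysosomal enzymes, Ctsb fell by 1.09 ± 0.15, Hexa by 1.20 ± 0.17 and Gusb by 1.07 ± 0.15, and the membrane protein Lamp2 by 0.98 ± 0.16. The GTPase Rac2 (-0.39 ± 0.15, adjusted p = 0.137) and Nos2 (0.08 ± 0.14, adjusted p = 0.801) did not pass. Csf1r, the receptor that drives monocyte growth, read 7.70, 7.62 and 7.40 against 5.74, 5.74 and 5.64 (-1.87 ± 0.23, adjusted p = 0.000142). Ms4a6c fell by 2.90 ± 0.29, the pore-forming Mpeg1 by 2.60 ± 0.35, Ly86 by 2.12 ± 0.27 and Cd68 by 2.10 ± 0.23. Cd14 (-0.14 ± 0.11) and Fcgr1 (-0.10 ± 0.16) did not pass. Monocyte markers had a mean of 7.07 to 7.19 on the GFP and 5.80 to 5.99 on the HOXB4 arrays.

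The transcription factors of this branch included several that fell. Of 20 myeloid transcription factors 7 fell, 1 rose and 12 did not pass, with a median of -0.50. Cebpa, needed to make granulocyte progenitors, read 9.39, 9.59 and 8.71 in GFP and 6.51, 6.59 and 6.53 in HOXB4 cells (-2.69 ± 0.23, adjusted p = 8.93e-06). Cebpd, which acts later, read 8.26, 8.61 and 7.48 against 5.65, 4.67 and 5.41 (-2.88 ± 0.27, adjusted p = 1.5e-05), and Cebpb, used in emergency granulopoiesis, read 7.53, 7.92 and 7.82 against 5.98, 6.24 and 6.43 (-1.54 ± 0.15, adjusted p = 1.68e-05). The other probe sets of Cebpb, at -0.19 and -0.56, did not pass (adjusted p = 0.348 and 0.077 over all probe sets). The 3 HOXB4 arrays of Cebpa lay close together and far below the lowest GFP array. Cebpg, a family member found in most cells, was at -0.18 ± 0.19 (adjusted p = 0.636). Gfi1, a repressor needed for neutrophils, fell by 1.62 ± 0.26, Irf8, which favours monocytes and dendritic cells, by 1.70 ± 0.25, and Klf4, of monocytes, by 1.29 ± 0.20. Spi1, encoding PU.1, read 9.40, 9.78 and 9.27 against 8.14, 8.41 and 8.33 (-1.19 ± 0.26, adjusted p = 0.00965) and missed the threshold without GFP replicate 2 (-1.04, adjusted p = 0.0585). Runx1, a regulator at the root of all blood lineages, was called higher on the probe set tested (0.58 ± 0.10, adjusted p = 0.00197). None of its 5 other probe sets passed (-0.25 to 0.36), and the mean of its probe sets was at 0.25 (adjusted p = 0.109).

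Eosinophil and dendritic cell genes gave a less even picture. Of 7 measured eosinophil genes 3 fell and 4 did not pass (median -2.40). Epx, the eosinophil peroxidase, read 8.61, 8.01 and 8.79 against 7.47, 4.85 and 4.43 (-2.88 ± 0.66, adjusted p = 0.0126). Prg2, the major basic protein of eosinophil granules, read 10.64, 9.61 and 11.33 against 10.09, 6.32 and 5.37 (-3.27 ± 0.89, adjusted p = 0.0321). HOXB4 replicate 1 thus lay near the GFP arrays, and for Prg2 within them. The count of falls was 1 without GFP replicate 1, HOXB4 replicate 2 or HOXB4 replicate 3 and 0 without both replicates 3. Of 12 dendritic cell genes 2 rose (Tcf4, 1.0 ± 0.23, and Flt3), 1 fell (Irf8) and 9 did not pass, with a median of -0.01. Without GFP replicate 1 or 2, and with the 6 arrays alone, 0 were called higher by limma. Without GFP replicates 1 and 2 in turn, Tcf4 was at 0.90 (adjusted p = 0.0675) and 0.83 (adjusted p = 0.0827). Xcr1, Batf3 and Zbtb46, which define conventional dendritic cells, were at -0.01, 0.19 and -0.09.

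**Figure D3:**
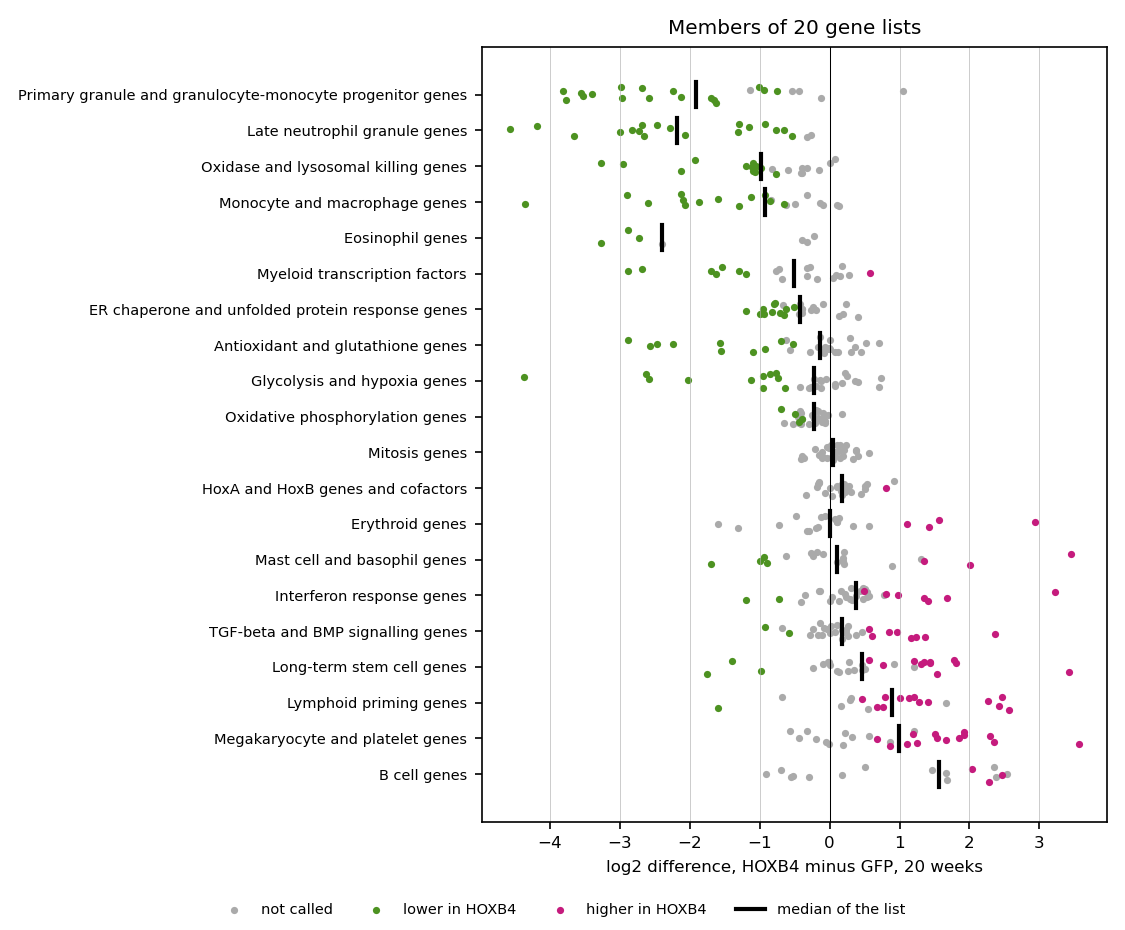
Log2 differences between HOXB4 and GFP cells at 20 weeks (horizontal axis) for the measured members of 20 gene lists, 1 point for each gene, green where called lower, magenta where called higher and grey where not called, with a black bar at the median. The primary and late granule lists lie left of 0, with medians of -1.91 and -2.18, the megakaryocyte and lymphoid priming lists right of it, with medians of 0.99 and 0.89, and the mitosis list around 0.05.

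On the other side, of 26 megakaryocyte and platelet genes 14 rose and 12 did not pass, with a median of 0.99. The mean of the members was 6.04, 5.85 and 6.10 on the GFP arrays and 6.70, 7.49 and 6.74 on the HOXB4 arrays, with HOXB4 replicate 2 the highest. Pf4, the platelet chemokine, read 8.28, 7.44 and 6.15 against 10.88, 11.58 and 10.09 (3.56 ± 0.43, adjusted p = 0.000134). Itga2b read 6.65, 6.63 and 6.89 against 7.92, 8.97 and 8.23 (1.66 ± 0.23, adjusted p = 0.000309), and F2r, a thrombin receptor, 6.44, 6.41 and 6.77 against 8.07, 9.65 and 8.80 (2.30 ± 0.33). No array of 1 group reached into the other. Rab27b, needed for platelet granules, rose by 2.35 ± 0.33, Treml1 of platelet granules by 1.92 ± 0.27, the adhesive protein Mmrn1 by 1.92 ± 0.34, Plek, a signalling substrate of platelets, by 1.85 ± 0.30, and Gfi1b, a repressor of megakaryocytes and red cells, by 1.53 ± 0.23. Vwf, von Willebrand factor, overlapped between the groups (1.20 ± 0.38, adjusted p = 0.0636), and Gp1bb (0.87 ± 0.28), Gp6 (-0.05 ± 0.14) and Gata1 (0.57 ± 0.28) did not pass. On another probe set Mmrn1 (0.40) did not pass. With each array left out in turn 10 to 15 members of the list rose, and with the 6 arrays alone 9.

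Mast cell and basophil genes were divided, with 3 of 19 higher, 4 lower and 12 not called (median 0.11). Ms4a2, the beta chain of the high-affinity IgE receptor, read 5.66, 6.13 and 5.72 against 7.88, 10.14 and 9.83 (3.45 ± 0.41, adjusted p = 0.000104). Cpa3, the mast cell carboxypeptidase, read 6.80, 6.45 and 7.68 against 8.49, 9.55 and 8.92 (2.01 ± 0.34, adjusted p = 0.0015). Gata2, a factor of stem cells, mast cells and megakaryocytes, read 8.76, 9.07 and 8.54 against 9.35, 10.75 and 10.31 (1.35 ± 0.28, adjusted p = 0.00746). HOXB4 replicate 2 was the highest array in all 3. The basophil protease Mcpt8 (-1.69 ± 0.38), the histamine enzyme Hdc (-0.94 ± 0.21), Mitf (-0.90 ± 0.20) and Cd200r3 (-0.99 ± 0.21) fell. On another probe set Mitf (-0.09) and Cd200r3 (-0.38) did not pass and Hdc (-1.49) did. Mcpt8 and Mitf missed the threshold without GFP replicate 1 (adjusted p = 0.0525 and 0.0531), Mitf and Hdc without GFP replicate 2 (0.0616 and 0.052), and Gata2 and Hdc without both replicates 3 (0.0743 and 0.0909). The promoter of Ms4a2 (chr19:11623720-11623869, minus strand, same source) is shown for its pair of GATA letters, AGATAA or TTATCT, in capitals, the nearest 11 bases before the gene.
Ms4a2: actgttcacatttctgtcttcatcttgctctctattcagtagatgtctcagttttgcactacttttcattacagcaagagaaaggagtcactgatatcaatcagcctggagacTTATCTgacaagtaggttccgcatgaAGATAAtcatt
These letters were present in 7.39% of all windows, in 13.7% (25 of 182) and 25% (8 of 32) of genes higher at least 2-fold and at least 4-fold, and in 9.38% (24 of 256) and 13.5% (10 of 74) of genes lower by as much, again without a test.

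Of 20 erythroid genes 4 rose and 16 did not pass, with a median of 0.01, where 3.77% of all genes rose. The same number rose in each of the alternatives. They were Mfsd2b, which exports sphingosine 1-phosphate (2.94 ± 0.33), Hemgn, a nuclear protein and known HOXB4 target, Tal1, a partner of GATA factors, and Car2, a carbonic anhydrase also found in early progenitors. Hemgn read 7.67, 7.35 and 7.65 against 8.81, 9.45 and 9.13 (1.57 ± 0.22, adjusted p = 0.000368). Tal1 read 5.85, 6.08 and 6.26 against 6.74, 8.02 and 7.70 (1.42 ± 0.26, adjusted p = 0.00313), and Car2 9.38, 9.28 and 9.76 against 10.26, 10.56 and 10.93 (1.11 ± 0.21, adjusted p = 0.00392). The groups did not overlap for any of the 4, as for most called genes. Klf1, the main erythroid activator, was at 0.10 ± 0.34 and the erythropoietin receptor Epor at 0.34 ± 0.18.

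Of 29 long-term stem cell genes 11 rose, 3 fell and 15 did not pass, with a median of 0.46. Mllt3, which maintains stem cells, read 4.73, 4.51 and 4.68 against 6.70, 5.95 and 5.55 (1.43 ± 0.26, adjusted p = 0.00267), and Ctnnal1, a catenin-like protein of stem cells, 5.23, 5.37 and 5.56 against 6.14, 6.22 and 6.11 (0.77 ± 0.16, adjusted p = 0.00736). The groups were separate in both genes, as in most called genes. On another probe set neither Mllt3 (0.70, adjusted p = 0.0943 over all probe sets) nor Ctnnal1 (0.34, adjusted p = 0.0621) passed. Tek, the angiopoietin receptor, read 5.01, 5.17 and 4.33 against 5.39, 7.90 and 6.56 (1.78 ± 0.51, adjusted p = 0.0403), rested mainly on HOXB4 replicate 2, and gave 1.13 (adjusted p = 0.143) without it. Prdm16 (-1.40 ± 0.19), the cell cycle inhibitor Cdkn1c and the interferon-inducible Ifitm1 fell. Cdkn1c read 4.67, 4.85 and 4.95 against 3.98, 3.74 and 3.81 (-0.98 ± 0.12, adjusted p = 0.000136), and Ifitm1 9.26, 9.18 and 10.71 against 7.48, 8.62 and 7.81 (-1.75 ± 0.39, adjusted p = 0.0103). Without both replicates 3, Ifitm1 was at -1.17 (adjusted p = 0.0764). The surface marker Procr (0.46 ± 0.31), the regulators Hlf (0.46 ± 0.21) and Mecom (0.27 ± 0.10) did not pass. The number that rose was 6 without GFP replicate 1, GFP replicate 2 or HOXB4 replicate 2, and 3 with the 6 arrays alone. Of 10 multipotent progenitor genes 1 rose, Flt3, and 9 did not pass, among them Cd34 (-0.13 ± 0.13), Myc (-0.47 ± 0.16) and Cd27 (0.23 ± 0.14).

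Prdm16, a transcription factor that stem cells require, read 7.42, 7.59 and 6.69 on the GFP and 6.03, 5.84 and 5.64 on the HOXB4 arrays (adjusted p = 0.000274). Hoxa9, a homeobox gene of early progenitors, read 7.05, 7.26 and 7.45 against 8.49, 8.10 and 7.57 (0.80 ± 0.18, adjusted p = 0.0112), and missed the threshold without GFP replicate 1 (0.70, adjusted p = 0.0616). Meis1, its partner, read 6.42, 6.29 and 6.52 against 6.84, 7.89 and 7.27 (0.92 ± 0.32, adjusted p = 0.0975). Its groups did not overlap, as for 25.4% of all genes, and on its other probe set it passed (1.17 ± 0.30, adjusted p = 0.0236 over all probe sets). Of 26 HoxA and HoxB genes and cofactors Hoxa9 was the 1 called, a share near the 3.77% of all genes, with 20 above 0 and a median of 0.18. With the mean of the probe sets 3 were called, and without GFP replicate 1 none by limma. Hoxa3 was at 0.53 ± 0.23 and passed on another probe set (1.02 ± 0.14, adjusted p = 0.000357).

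Lymphoid priming genes rose in part, with 13 of 20 higher, 1 lower (Ikzf3, named after its value was seen) and 6 not called (median 0.89). The mean of the members was 7.56, 7.25 and 8.45 on the GFP arrays and 8.94, 8.51 and 8.68 on the HOXB4 arrays, so GFP replicate 3 lay just below the HOXB4 arrays. Dntt, which adds bases at receptor joints, read 8.76, 7.98 and 10.24 against 11.73, 10.90 and 11.17 (2.27 ± 0.41, adjusted p = 0.00248). Bcl11a, a factor needed for lymphoid progenitors, read 8.74, 8.60 and 9.20 against 10.03, 10.12 and 10.02 (1.21 ± 0.14, adjusted p = 8.59e-05). Satb1, a chromatin organiser, read 7.91, 8.01 and 8.65 against 9.32, 9.14 and 9.96 (1.28 ± 0.24). In all 3 GFP replicate 3 was the highest GFP array. Flt3, the receptor of lymphoid-primed progenitors, read 7.63, 7.40 and 9.08 against 9.44, 9.41 and 9.49 (1.41 ± 0.33, adjusted p = 0.0128). It missed the threshold without GFP replicate 1 (1.21, adjusted p = 0.0696) or GFP replicate 2 (1.10, adjusted p = 0.0768). Foxp1 (0.68 ± 0.13) and Mef2c (0.79 ± 0.17) rose, and Notch1 (0.31 ± 0.15), Ccr9 (0.29 ± 0.24) and Sox4 (0.55 ± 0.26) did not pass. The number that rose was 6 without GFP replicate 1 or 2, 8 without HOXB4 replicate 1 and 15 without GFP replicate 3. The lower call was lost without GFP replicate 1 or 3, without any 1 of the HOXB4 arrays and with the 6 arrays alone.

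Rag1 and Rag2, neighbouring genes of the recombinase, were among the 25 largest rises. Rag2 read 5.44, 5.12 and 6.5 against 8.62, 7.52 and 8.30 (2.46 ± 0.49, adjusted p = 0.0055). Rag1 read 6.64, 5.62 and 7.84 against 9.73, 8.38 and 9.25 (2.42 ± 0.72, adjusted p = 0.0494), and missed the threshold without GFP replicate 1 (2.39, adjusted p = 0.128) or GFP replicate 2 (1.88, adjusted p = 0.222), and without HOXB4 replicate 1 (2.12, adjusted p = 0.131) or 3 (2.36, adjusted p = 0.121). Its groups were close, at 7.84 and 8.38. Lef1, a Wnt effector of lymphoid cells, read 5.21, 4.16 and 5.89 against 8.56, 7.17 and 7.22 (2.56 ± 0.68, adjusted p = 0.0286), and missed it without GFP replicate 1, GFP replicate 2 or HOXB4 replicate 1 (adjusted p = 0.0747, 0.145 and 0.0951). With both replicates 3 left out, Rag1 was at 2.92 (adjusted p = 0.0556), and 11 lymphoid priming, 14 megakaryocyte and 7 long-term stem cell genes rose, while 17 primary granule, 13 late granule and 12 monocyte genes fell.

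Of 16 B cell genes 3 rose and 13 did not pass. The median was 1.56, with 11 above 0 and 5 below. The mean of the members was 7.13, 6.24 and 7.97 on the GFP arrays and 8.58, 7.99 and 7.88 on the HOXB4 arrays, so the groups overlapped. Pax5, which commits cells to the B lineage, read 7.62, 6.16 and 8.57 against 10.63, 9.66 and 9.68 (2.54 ± 0.79, adjusted p = 0.059), and its partner Ebf1 5.87, 5.03 and 7.45 against 9.44, 8.31 and 7.64 (2.35 ± 0.72, adjusted p = 0.0563). The 3 that rose were Cd72, a coreceptor of B cells, at 6.52, 6.58 and 7.35 against 8.81, 9.20 and 9.27 (2.28 ± 0.21, adjusted p = 1.53e-05), and the surrogate light chain genes Vpreb2 (2.47 ± 0.64) and Vpreb3 (2.03 ± 0.52). The GFP arrays differed among themselves by more than 2 log2 units for Pax5 and Ebf1. With GFP replicate 3 left out 7 members rose. With GFP replicate 1, GFP replicate 2 or HOXB4 replicate 1 left out 1 rose, and without GFP replicate 2 also 3 fell and the median was 0.87. T and NK cell genes gave 2 of 22 higher, against 3.77% of all genes, and 20 not called (7 higher without GFP replicate 3). They were the receptor segment Trbv13-2, at 5.79, 5.28 and 6.66 against 8.43, 10.04 and 8.95 (3.23 ± 0.35), and the adaptor Lat, at 6.09, 5.85 and 6.32 against 7.65, 7.91 and 7.42 (1.57 ± 0.15). The defining T cell chains Cd3e, Cd3d and Cd3g were at -0.49, -0.13 and -0.13, and Lat is also made by megakaryocytes and mast cells.

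**Figure D4:**
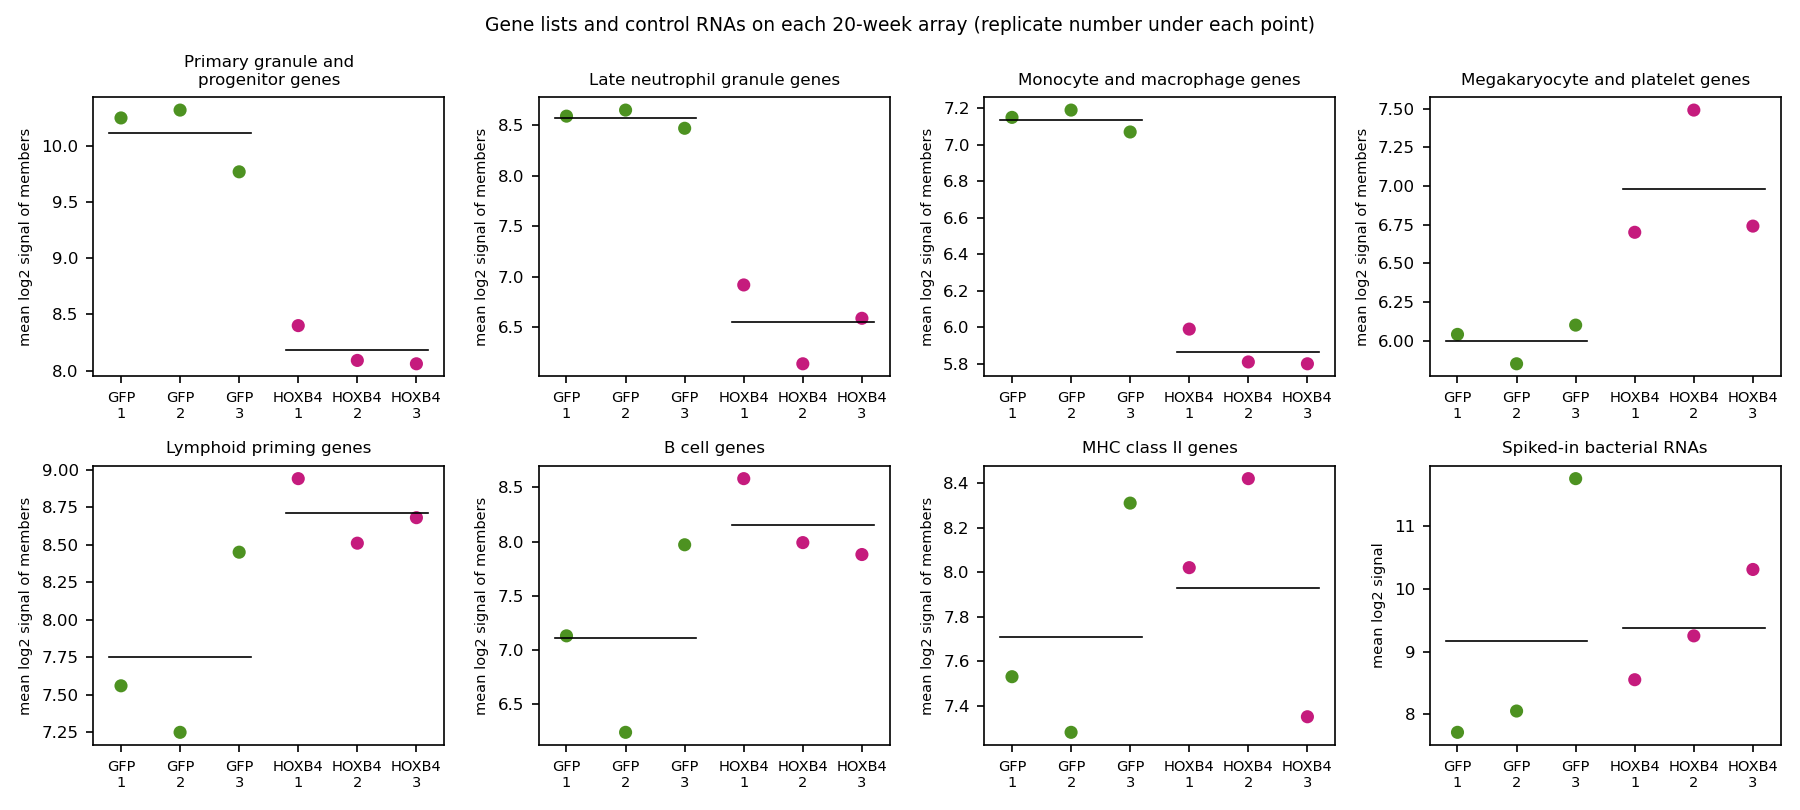
Mean log2 signal of the members of 7 gene lists and of the spiked-in bacterial RNAs (vertical axes, each panel on its own scale) on the 3 GFP arrays (green) and 3 HOXB4 arrays (magenta) at 20 weeks, with black lines at the group means. The granule and monocyte panels separate the groups, whereas in the B cell and MHC class II panels GFP replicate 3, the array brightest for spiked-in RNAs at 11.76, lies among the HOXB4 arrays.

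The other large rises included genes of several roles. St3gal6, a sialyltransferase, read 5.06, 4.21 and 6.29 against 9.74, 8.53 and 8.73 (3.81 ± 0.52, adjusted p = 0.0003). Smad1, the transducer of BMP signals, read 8.41, 8.63 and 8.61 against 11.30, 10.79 and 10.66 (2.36 ± 0.20, adjusted p = 9.46e-06). Ctla2a, a cathepsin inhibitor, read 8.98, 8.94 and 10.05 against 11.36, 11.88 and 11.86 (2.38 ± 0.25, adjusted p = 3.95e-05). All 3 genes were among the 25 largest rises, for which the ranking required separate groups. Gnb4, a G protein subunit, rose by 3.03 ± 0.25, Prkca, a protein kinase C, by 2.44 ± 0.31 and H2-Ob, a modulator of antigen loading, by 2.46 ± 0.31. The formin Fmn2 (2.35 ± 0.34), Dzip1 (2.70 ± 0.31), the receptor Gfra2 (2.88 ± 0.62) and the proteoglycan Sdc4 (2.83 ± 0.60) were also among the 25. Their other probe sets passed for Gfra2 (1.30 and 2.19) and Sdc4 (3.16), but not for Fmn2 (0.31 and 0.22) or Dzip1 (0.42 and 0.56). Sdc4 missed the threshold without GFP replicate 2 (2.39, adjusted p = 0.0514). Mab21l2 read 5.48, 5.11 and 6.10 against 10.79, 9.29 and 6.65 (3.35 ± 0.67), so HOXB4 replicate 3 lay just above the GFP arrays. Clca3a1, a member of the long-term stem cell list, and Clca3a2 are neighbours on chromosome 3. The names of their tested probe sets mark possible cross-hybridisation, and whether these read each other's transcripts was not tested. Both were highest on HOXB4 replicate 2, at 8.80 and 8.20 against 4.95 to 5.67 and 4.83 to 5.33 on the other HOXB4 arrays. On their other probe sets Clca3a1 was at 0.82 and Clca3a2 at 0.13 and 0.08, none past the test. In all, 7 of the 50 ranked genes had a probe set whose name marks possible cross-hybridisation, Chil4 among them.

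In signalling, the BMP and TGF-beta list had 8 of 31 higher, 2 lower and 21 not called (median 0.17), where 3.77% of all genes rose and 5.18% fell. Besides Smad1, the inhibitor Smad7 read 6.00, 6.21 and 5.82 against 7.40, 7.03 and 7.13 (1.17 ± 0.13, adjusted p = 5.81e-05), and the receptor Tgfbr2 6.21, 6.56 and 6.81 against 7.34, 7.61 and 7.52 (0.96 ± 0.20, adjusted p = 0.00638). Both were separate between the groups, as most called genes were. The receptor Tgfbr3 (1.36 ± 0.35), Smad3 (0.61 ± 0.15) and the target Id3 (1.24 ± 0.32) rose, and the target Id1 (-0.92 ± 0.17) fell, so 2 targets of the same pathway moved in opposite directions. The receptor Acvr1 was called lower on the probe set tested (-0.58 ± 0.16), but its other probe sets were at 0.70 and 0.11, and the mean of its probe sets was at 0.07. The ligands Tgfb1, Tgfb2 and Tgfb3 were at 0.26, 0.01 and 0.17. The number that rose was 4 without GFP replicate 1, 3 without GFP replicate 2 and 5 without HOXB4 replicate 2. Tgfbr3, Smad3 and Id3 missed the threshold without GFP replicate 2 (adjusted p = 0.0764, 0.0943 and 0.133).

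Counts of Wnt and Notch genes stand against 3.77% of all genes that rose. Among Wnt genes 4 of 22 rose and 18 did not pass (median 0.12). Tcf7l2, an effector of beta-catenin, read 6.07, 6.08 and 7.04 against 8.65, 8.24 and 8.03 (1.91 ± 0.33, adjusted p = 0.00184), and the receptor Fzd6 5.42, 5.50 and 4.91 against 5.98, 6.72 and 6.11 (0.99 ± 0.18, adjusted p = 0.00314). Ctnnb1, beta-catenin, was at 0.08 ± 0.15, and Axin2, a common target, at 0.23 ± 0.23, neither past the test. Lef1 and the inhibitor Dkk1 (0.76 ± 0.22, adjusted p = 0.0449) were the other two that rose. The number that rose was 2 without GFP replicate 1 or 2. Of 15 Notch genes 2 rose, the target Nrarp (1.07 ± 0.26) and the coactivator Maml1 (0.74 ± 0.22), and both missed the threshold without GFP replicate 1 (adjusted p = 0.0896 and 0.151). On another probe set Maml1 (0.26) did not pass and Nrarp (1.29) did.

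Of 27 cytokine receptors 3 rose (Flt3, Tek and Il17ra), 5 fell and 19 did not pass, with a median of -0.12. Of all genes 3.77% rose and 5.18% fell. Without GFP replicate 1 or GFP replicate 2, and with the 6 arrays alone, 1 rose. Il17ra, the receptor for a T cell cytokine, read 10.50, 10.54 and 11.01 against 11.67, 11.47 and 11.77 (0.95 ± 0.15, adjusted p = 0.00107). Those that fell besides Csf1r and Csf3r were Il6ra (-1.62 ± 0.20), the interferon-gamma receptor Ifngr1 (-0.78 ± 0.15) and the tumour necrosis factor receptor Tnfrsf1a (-1.16 ± 0.21), each also made by myeloid cells. Interferon response genes gave 7 of 31 higher, 2 lower and 22 not called (median 0.38), against the same shares of all genes. Iigp1, a GTPase against intracellular microbes, read 4.37, 4.26 and 4.94 against 7.47, 8.91 and 6.86 (3.23 ± 0.52), Rtp4 rose by 1.68 ± 0.21 and Gbp2 by 1.41 ± 0.23. Gbp3 (-1.19 ± 0.26) and Ifitm3 (-0.72 ± 0.17) fell. The mean of the interferon list was 6.55 to 6.59 on the GFP arrays, and 7.11, 7.23 and 6.67 on HOXB4 replicates 1, 2 and 3. HOXB4 replicate 3 thus lay just above the GFP arrays. Without it 12 members rose, and without GFP replicate 1 the count was 4 higher and 0 lower.

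The counts of cell cycle genes stand against 3.77% of all genes that rose and 5.18% that fell. Of 29 mitosis genes 0 were called by limma, with 3 at an unadjusted p under 0.05, and the median was 0.05, with Ccnb2, Ccna2 and Cdk1 at 0.37 ± 0.22, 0.13 ± 0.18 and -0.11 ± 0.16. The mean of these members was 8.40, 8.42 and 8.30 on the GFP and 8.83, 8.33 and 8.12 on the HOXB4 arrays. Of 31 replication genes 2 rose, Orc1 (0.73 ± 0.18) and Uhrf1 (0.45 ± 0.13), and both missed the threshold without GFP replicate 1 (adjusted p = 0.0519 and 0.154). The count was 0 by limma also without GFP replicate 2, HOXB4 replicate 2 or HOXB4 replicate 3 and with the 6 arrays alone, and with the mean of the probe sets 0 rose and 2 fell. Of 16 CDK inhibitors and G1 cyclins 2 rose, 1 fell and 13 did not pass (median 0.27). Without GFP replicate 1 or 2, or HOXB4 replicate 1 or 2, 1 rose. The inhibitor Cdkn1b, which holds cells in G1, read 8.16, 8.24 and 8.36 against 8.97, 8.95 and 9.22 (0.79 ± 0.11, adjusted p = 0.000279), in the direction opposite to its relative Cdkn1c, and Cdkn1a (0.23 ± 0.28) did not pass. The cyclin Ccnd3 rose by 0.81 ± 0.23 (adjusted p = 0.0363, and 0.115 without GFP replicate 1), whereas Ccnd1 (-0.41 ± 0.19) and Cdk6 (0.22 ± 0.12) did not pass. Among chromatin genes Ezh1, a histone methylase of quiescent cells, read 7.09, 7.10 and 7.19 against 7.62, 8.17 and 7.95 (0.79 ± 0.13, adjusted p = 0.00152), and its relative Ezh2 was at 0.31 ± 0.20.

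Several metabolic lists held falls and no rises. Of 26 genes of the endoplasmic reticulum and the unfolded protein response 11 fell and 15 did not pass (median -0.43). Xbp1, the factor that drives secretory capacity, read 9.55, 9.63 and 9.61 against 8.57, 8.82 and 7.81 (-1.20 ± 0.24, adjusted p = 0.00603), the chaperone Hspa5 10.67, 10.63 and 10.49 against 10.14, 9.90 and 9.82 (-0.65 ± 0.12, adjusted p = 0.00241), and Pdia4, which forms disulphide bonds, 8.39, 8.41 and 8.44 against 7.54, 7.54 and 7.15 (-1.0 ± 0.17). All 3 had separate groups, as most called genes had. Of 30 antioxidant and glutathione genes 10 fell and 20 did not pass (median -0.14). Metallothionein Mt1 read 8.43, 8.71 and 8.37 against 6.77, 5.01 and 5.06 (-2.89 ± 0.35), and Gsr, which recycles glutathione, 11.16, 11.28 and 10.28 against 8.60, 8.07 and 8.33 (-2.57 ± 0.25). On another probe set Mt1 (-0.29) did not pass and Gsr (-3.36) did. Of the genes of glutathione synthesis Gclm fell (-1.09 ± 0.12), and Gss was at 0.36 ± 0.15 (adjusted p = 0.173). The glutathione peroxidase Gpx3 (-1.55 ± 0.25) and the transferases Gsta4 (-1.57 ± 0.29), Gsto1 (-0.93 ± 0.17) and Gstm1 fell.

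Of 29 glycolysis and hypoxia genes 11 fell and 18 did not pass (median -0.22). Ldhb, a lactate dehydrogenase, read 9.89, 10.10 and 8.68 against 6.70, 6.69 and 7.42 (-2.62 ± 0.30, adjusted p = 7.75e-05), and Egln3, an oxygen sensor, 8.33, 8.68 and 8.66 against 6.59, 5.91 and 7.11 (-2.02 ± 0.25). The glycolytic enzymes Aldoa (-0.85 ± 0.11) and Pfkp (-0.96 ± 0.12) and the lactate exporter Slc16a3 (-1.13 ± 0.16) fell, and the glucose transporters Slc2a1 (-0.27 ± 0.15) and Slc2a3 (0.71 ± 0.27) did not pass. Of 31 genes of oxidative phosphorylation 30 were below 0, with a median of -0.23. Of these genes 4 fell, led by cytochrome c (Cycs, -0.70 ± 0.20), where 5.18% of all genes fell. With each array centred on its median the median of all genes was -0.029 in place of 0.022. None of the 4 was called without GFP replicate 1, GFP replicate 2 or HOXB4 replicate 3. Among 28 sphingolipid genes 2 rose (Mfsd2b and Cers4), 5 fell and 21 did not pass. The other probe sets of Cers4, at 0.13 and 0.19, did not pass, and that of Mfsd2b, at 1.99, did. Sgms2, which makes sphingomyelin, read 7.59, 7.74 and 6.27 against 3.45, 2.96 and 3.15 (-4.01 ± 0.39), and Cers6, a ceramide synthase, 8.44, 8.32 and 7.89 against 6.07, 6.49 and 6.34 (-1.92 ± 0.16, adjusted p = 7.56e-06). Sptlc2, of the first step of the pathway, fell by 0.83 ± 0.13, and the ceramidase Asah1 by 0.72 ± 0.11. Primary granule markers fell on the same arrays, from means of 9.77 to 10.32 to means of 8.06 to 8.40, and their part in these metabolic falls was not tested.

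Heat shock genes gave 0 of 12 called by limma, with 4 at an unadjusted p under 0.05 (median -0.17), and immediate-early genes 3 of 23 higher and 2 lower. Jun lay between 7.41 and 8.25 on the GFP arrays and rose by 1.78 ± 0.49 (adjusted p = 0.0357), and Jund rose by 1.22 ± 0.28, whereas Fos (-0.13 ± 0.58) and Fosb (-0.35 ± 0.52) did not pass. On another probe set Jund was at 0.00 and did not pass, and Jun was at 1.73 and did. Jun missed the threshold when any array except GFP replicate 3 was left out (adjusted p between 0.0516 and 0.141). Without GFP replicate 1 or 2, 1 immediate-early gene rose and 1 fell. Adhesion and homing genes gave 2 of 29 higher and 3 lower, and genes of the Bcl2 family 1 of 16 in each direction, Bok (0.50 ± 0.11) higher and Bid (-0.85 ± 0.21) lower, against 3.77% and 5.18% of all genes. Bid missed the threshold without GFP replicate 1, GFP replicate 2 or HOXB4 replicate 3 (adjusted p = 0.0679, 0.0723 and 0.0674). Without any 1 of GFP replicates 1 and 2 and HOXB4 replicates 2 and 3, 1 adhesion gene rose, and without GFP replicate 3, 4 rose. Markers of stroma and endothelium were checked as well. Of 14 members 2 rose, Tek and Pdgfrb (1.38 ± 0.26), and 1 rose without any 1 of the arrays except HOXB4 replicate 1, while the collagens Col1a1, Col1a2 and Col3a1 were between 3.31 and 4.24 on all 6 arrays and did not pass. Of 10 MHC class II genes H2-Ob rose and 9 did not pass, with Cd74 at 10.16, 9.17 and 11.08 against 9.93, 10.14 and 8.44.

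The same contrast at 12 weeks used other arrays, and the difference between the effects was tested gene by gene. It was called for 87 of 17097 genes (0.509%), 66 more negative and 21 more positive at 20 weeks, and 75 of the 87 were also called at 20 weeks. Of the 50 ranked genes 14 passed, all among the falls. Chil3 was at 1.83 ± 0.56 at 12 and -4.57 at 20 weeks (difference -6.40, adjusted p = 0.00176), Chil4 at 1.71 ± 0.31 and -4.36 (-6.07, adjusted p = 1.25e-05), and Lcn2 at 1.36 ± 0.64 and -4.19 (-5.55, adjusted p = 0.00995). For these 3 the sign was opposite at the earlier time. Late granule genes as a list had a median of 0.42 at 12 and -2.18 at 20 weeks, with 8 of 20 differences called. Primary granule genes were at -1.02 and -1.91, with 2 of 22 called, so Elane (-2.18 ± 0.45 at 12 weeks, adjusted p of the difference 0.4) and Prtn3 (-1.92 ± 0.41, adjusted p 0.202) were not shown to differ between times.

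On the probe sets tested, none of the 25 largest rises passed the test of a difference between times. St3gal6 was at 3.69 ± 0.52 at 12 weeks, Gfra2 at 3.54 ± 0.62 and Sdc4 at 3.49 ± 0.60, against 3.81, 2.88 and 2.83 at 20 weeks. Gnb4 was at 1.41 ± 0.25 at 12 and 3.03 ± 0.25 at 20 weeks (adjusted p of the difference 0.0646), and Ctla2a at 0.84 ± 0.25 and 2.38 ± 0.25 (0.0776), neither past the threshold. On other probe sets the difference between times passed for St3gal6 (1.30, adjusted p = 0.00795 over all probe sets) and Gnb4 (2.31, adjusted p = 0.0223). The genes were ranked on the 20-week arrays, which favours larger values at that time. The count of 87 was 222 without GFP replicate 3 and 175 without HOXB4 replicate 1 of 20 weeks, 39 without GFP replicate 1 and 57 without HOXB4 replicate 2 of 20 weeks. Leaving out a 12-week array gave 47 (GFP replicate 1 or HOXB4 replicate 3), 54 (GFP replicate 2 or 3), 57 (HOXB4 replicate 1) or 38 (HOXB4 replicate 2).

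**Figure D5:**
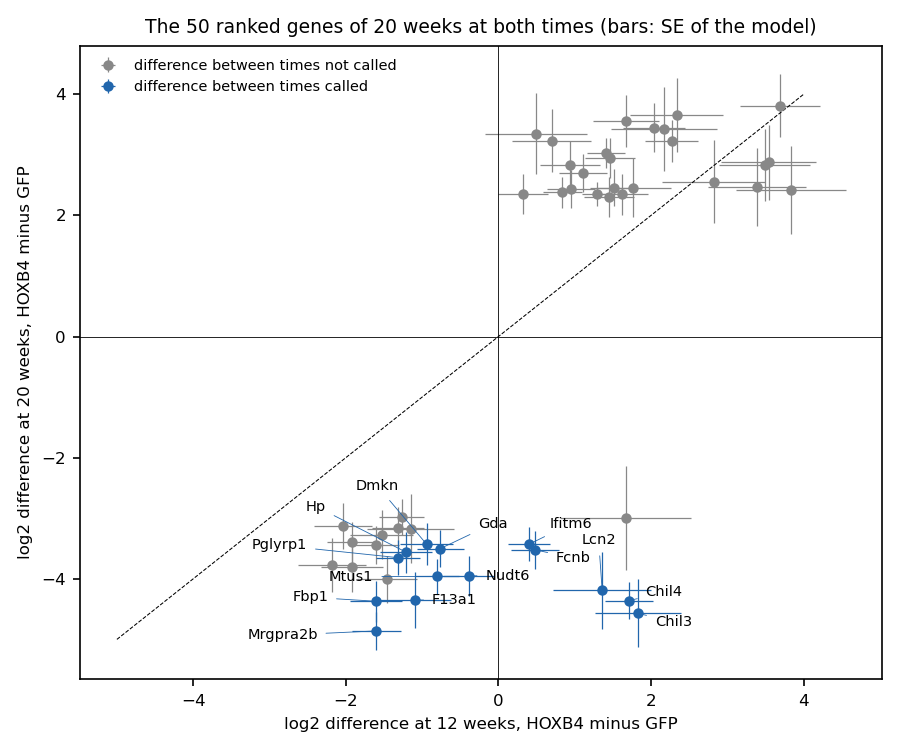
Log2 difference between HOXB4 and GFP cells at 20 weeks (vertical axis) against that at 12 weeks (horizontal axis) for the 50 ranked genes, with bars for the standard error of the model and a dashed line where both are equal. Blue points, with names, are the 14 genes whose difference between times was called. Chil3, Chil4, Lcn2, Fcnb and Ifitm6 lie right of 0 at 12 weeks and below -3 at 20 weeks, and the rises lie at both times above 0.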

How the data were processed

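The deposited values are log2 signals, 1 for each probe set and array, for which the authors used RMA and Partek 6.5 (named in the submitters' processing notes). No counts exist for such arrays, and the 3 arrays of a group limit the precision. Of 45141 probe sets, 28898 had 1 gene symbol in the platform annotation, 551 had several and 15692 were not listed, and symbols were updated through a RefSeq table of GRCm38.p6. For each gene the probe set brightest over the 15 arrays was kept. A linear model with 5 groups was fitted to all 15 arrays with limma 3.58.1 in R 4.3.3, with eBayes moderation and Benjamini-Hochberg adjustment, and the difference between times was tested as an interaction. The fit was tested on simulated data.

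Genes were named by rule: the 25 largest called rises and falls whose groups did not overlap; Prdm16, Hemgn, Mecom, Meis1, Hoxa9 and Hoxb4; in each gene list the 8 called members with the smallest p and the first 3 not called, or all members of lists of up to 12. The members and lists were chosen with earlier results of these data known. Alternatives changed the arrays in the fit, the probe set rule, the normalization, the moderation, the filter on dim genes, array weights and the replicate block. Leaving out both arrays brightest for spiked-in RNAs was chosen after seeing the data.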

Additional observations from a re-analysis of the deposited data

Results flagged for a closer look

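The effect of HOXB4 at 20 weeks differed from that at 12 weeks, by the interaction test in limma (adjusted p under 0.05 over all genes), for 87 genes, 20 of which are named here. Those ranked at 20 weeks were chosen on the values of that time. Differences are the 20-week effect minus the 12-week effect, on the log2 scale. Among late granule and chitinase-like genes it was -6.40 for Chil3, -6.07 for Chil4, -5.55 for Lcn2, -3.89 for Ltf, -3.79 for Cd177, -2.42 for Lyz2, -2.33 for Pglyrp1 and -1.79 for Ceacam1. On its other probe set Chil4 was at -0.33 and did not pass. For Fcnb and Ifitm6, above 0 at 12 weeks, it was -4.0 and -3.83. Cybb, of the oxidase, and Cebpd, a transcription factor, differed by -3.57 and -2.27. Nudt6, at -0.39 at 12 weeks, differed by -3.57, and by -3.72 on its other probe set. The remaining genes, with values below 0 at both times, were Mrgpra2b (-3.26), F13a1 (-3.25), Mtus1 (-3.16), Fbp1 (-2.76), Gda (-2.74), Dmkn (-2.49) and Hp (-2.35). Different arrays, and at 20 weeks the arrays brightest for spiked-in RNAs, entered each time, and their part in these differences was not tested.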

How the results depend on the processing

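The count of 1530 genes called at 20 weeks was 715 (276 higher, 439 lower) with only these 6 arrays in the fit, 2408 with all probe sets tested, and between 798 and 1585 with 1 array left out. The other alternatives gave between 1091 (no moderation) and 2155 (array weights), and centring each array on its median gave 1545, with 32.9% of calls higher in place of 42.2%. The 87 differences between times became 183 both with only the arrays of the 4 groups in the contrast and without the 6-week group (the same fit), 22 without moderation, 563 with array weights, 222 without both arrays brightest for spiked-in RNAs (chosen after seeing the data), and between 38 and 222 with 1 array left out. The cause of these changes was not tested. Fits with fewer arrays have fewer degrees of freedom, but their counts did not always fall. The fit without the 6-week group called 2041 genes at 20 weeks and 183 differences, and that without GFP replicate 3 of 20 weeks 1585 and 222. Same-numbered HOXB4 and GFP arrays did not deviate together over all genes (correlations 0.029, 0.042 and -0.031). With 3 arrays in a group this cannot exclude that the numbers pair the samples. The replicates 3 of both groups were the brightest for spiked-in RNAs. The fit with a replicate block called 1434 genes at 20 weeks and 76 differences.

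Of 185 named called genes 129 passed in each alternative that held them, at most 18, and of the 50 ranked genes 43. The exceptions among the ranked were Clca3a1, Lef1, Mab21l2, Rag1, S100a8, Sdc4 and Vpreb2. The filter on dim genes left out some named genes, with Clca3a2, Ifitm6 and Sgms2 among the ranked, which had 17 alternatives. Of 138 named genes not called, 38 passed in at least 1 alternative. Under the mean of the probe sets of a gene, Acvr1 turned from -0.58 to 0.07 and Mycn from -0.01 to 1.59. Signal over background limits dim genes, and the dimmest genes left out gave 1475 calls.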

Other observations

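The rule of 1 probe set for each gene hid some changes. Of 7180 genes with several probe sets, 68 were not called at 20 weeks although another of their probe sets was called at 2-fold or more, 29 higher and 39 lower. Conversely, some called genes did not pass on another probe set, among them Fzd6 (0.30), Cdkn1b (0.43), Tgfbr2 (0.48 and -0.17) and Ms4a6c (-0.61). The genes below were chosen after their values were seen. Mycn, a Myc family factor of early progenitors, was tested on a probe set near 12.6 on all arrays (-0.01, adjusted p = 0.983). On another it read 5.80, 5.95 and 7.58 on the GFP arrays and 9.60, 9.05 and 9.45 on the HOXB4 arrays (2.93 ± 0.36, adjusted p = 0.00018 over all probe sets), and on the third it differed by 1.87 ± 0.28 (adjusted p = 0.000861). Its GFP arrays differed more than its HOXB4 arrays, with replicate 3 the highest.

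Cplx2, a regulator of vesicle release, read 4.80, 4.51 and 6.00 against 9.07, 7.36 and 8.14 on such a probe set (3.09 ± 0.75, adjusted p = 0.0186), and Sytl4, a granule docking protein, 4.23, 3.83 and 4.39 against 6.41, 6.37 and 5.97 (2.10 ± 0.25, adjusted p = 0.000158). Tmie was higher by 2.58 ± 0.25. Lower were Ncam1, a neural cell adhesion molecule, at 5.70, 6.23 and 4.66 against 3.69, 2.80 and 3.01 (-2.36 ± 0.37), and Rnf214 (-1.71 ± 0.21). Prdm16 was lower on all 4 of its probe sets, by 1.40 on the one tested and by 2.57 to 4.17 on the others, so the size of its fall differs between probe sets. The probe sequences were not used here, and which transcripts each probe set reads was not tested.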
